A study of Mus musculus with 3 samples.

Results

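Genes of de novo fatty acid synthesis, led by ACC1, were examined in splenic memory phenotype CD4 T cells of mice on different diets. These helper T cells carry the surface phenotype of cells that have met antigen. The genes are Acaca, Acacb, Fasn, Acly, Acss2, Me1, Srebf1, Mlxipl and Thrsp. Every probe set that the platform annotation assigns to 1 of these 9 genes was taken, which gave 21 of the 45037 probe sets on the array. The study holds 3 Affymetrix arrays. The ND array carries RNA from BALB/c mice fed a normal diet, and HFD 1 and HFD 2 carry RNA from BALB/c mice on a high fat diet with 60 kcal% fat, both diets given for 10 weeks. All 3 samples were obtained by cell sorting, with a stated purity above 99%. The labels give neither age nor sex. They do not say how many mice were pooled or whether different mice gave HFD 1 and HFD 2. A p-value here thus reflects no more than how the HFD samples vary, which may be technical. The lone ND sample adds nothing to that spread.

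Fatty acid synthesis turns acetyl-CoA in the cytosol into palmitate. Acly and Acss2 make the cytosolic acetyl-CoA, from citrate and from acetate. Acetyl-CoA carboxylase then makes malonyl-CoA, the committed step, and exists as ACC1 (Acaca), which feeds synthesis, and ACC2 (Acacb), which sits at mitochondria and restrains fatty acid oxidation through malonyl-CoA. Fasn assembles the chain with NADPH, part of which comes from malic enzyme (Me1). SREBP-1 (Srebf1) and ChREBP (Mlxipl) are the lipogenic transcription factors, and Thrsp is a small lipogenic protein of liver and fat. Resting T cells make little fat and raise this pathway on activation, and ACC1 is known to favour Th17 over regulatory T cell differentiation.

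The 2 genes that carry out the committed step and chain assembly rose in HFD, while the acetate-using Acss2 and the regulator Srebf1 fell. Fasn rose 2.64-fold and Acaca 1.93-fold on its brighter probe set, whereas Acss2 fell 1.89-fold and Srebf1 1.29-fold. Calls for Fasn and Acss2 held under every processing setting that gave a test, and those for Acaca and Srebf1 did not. Acly, the main source of cytosolic acetyl-CoA, had a fitted ratio of 1.02 on its brightest probe set and was not called. No member past the filter on mean intensity fell by 2-fold in both HFD arrays, and only Fasn rose by 2-fold in both. Acacb, Me1, Mlxipl and Thrsp did not pass that filter and were outside this test. Among their dim probe sets, 1 of Acacb fell and that of Mlxipl rose by 2-fold in both HFD arrays.

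A filter on low values asked for a mean intensity over the 3 arrays above 71.4, the median of these means, and 9 of the 21 passed it, from 5 genes. Each of the 9 was above that level on every single array. The other 12, including all those of Acacb, Me1, Mlxipl and Thrsp, read between 0.533 and 89.0. Fold changes and log2 differences below are HFD minus ND on the log2(intensity + 17.65) scale, where 17.65 is the intensity that 25% of all values lie below and the offset understates the change of dim genes. Each gene was tested on its brightest probe set with limma over 10341 genes and called at an adjusted p under 0.05. By that call 2 members rose, against 20.5% of all genes tested, and 2 fell, against 29.2%. By the rule of 2-fold in both HFD arrays 1 of the 5 tested members rose, against 6.0% of all genes tested, and 0 fell, against 2.60%. Per probe set, 2 of the 9 rose, against 18.2% of all probe sets tested, and 3 fell, against 25.1%. By the rule of size 1 of the 9 rose, against 5.61%, and 0 fell, against 2.26%. The median over the 5 genes was 0.03, against -0.15 over all genes tested. With so few members and calls this common, these counts are not read as particular to the pathway.

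Differences between ND and HFD were wide over the whole table, which bears on every value below. A typical gene differed from ND by 0.39 in HFD 1 and by 0.45 in HFD 2 (median absolute log2 difference), and by 0.13 from one HFD array to the other. Since the median difference over genes was -0.15, values relative to it are given as well. Of all calls 41.3% were higher in HFD, a share that became 56.8% when each array was centred on its median. T cell markers were bright on all arrays, with 6 of 6 markers past the filter. Their sum fell from 67024 in ND to 55138 and 53570 in HFD. The log2 difference was -0.90 for Cd4, -0.78 for Cd44 and -0.74 for Cd3e. It was -0.40 for Cd3g, -0.22 for Cd3d and 0.08 for Cd5. The class II gene H2-Ea, which BALB/c mice express and C57BL/6 mice lack, read 11.5 in ND and 536 and 602 in HFD on its brightest probe set, while the class II chaperone Cd74 read 831, 535 and 460.

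Markers of other cells also differed between the groups. The sum over 6 B cell markers was 442 in ND and 1992 and 2157 in HFD. The rise came from Ms4a1, which read 56.8, 1612 and 1837, and the other 5 markers summed to 385 in ND and to 379 and 320 in HFD, with Cd79a higher and Cd79b lower on both HFD arrays. The sums over 9 macrophage and myeloid markers went the other way, at 2184 in ND and 874 and 991 in HFD, and those over 6 dendritic cell markers were 1915, 783 and 885. The 6 neutrophil markers summed to 182 in ND and to 605 and 657 in HFD. Of the 3 past the filter, S100a8 and S100a9 rose (log2 2.44 and 2.88), while Ngp was not called (0.08, limma adjusted p = 0.866). Of 6 adipocyte markers, 5 were below the median intensity of each array, Adipoq being the exception at 122, 89.2 and 72.4, and all 5 hepatocyte markers were below it. The part of these cells and of strain in the results below was not tested, and diet cannot be told apart from whatever else set the lone ND sample apart. In bulk samples, fewer cells of a type and less RNA per cell cannot be told apart.

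Acaca and Fasn, the genes of the committed step and of chain assembly, were both called higher, and Acss2 and Srebf1 were both called lower. The 250 bases upstream of their starts in the RefSeq annotation of GRCm38.p6 are shown to compare the letters that the lipogenic factors are known to recognise. All 9 genes had at least 1 entry, with 13 windows in all. Capitals mark, on either strand, TCACCC (the core of the sterol regulatory element that SREBP binds), CCAAT (bound by NF-Y, a usual partner of SREBP), GGGCGG (the GC box of Sp1) and CACGTG (the E-box that ChREBP and USF factors bind). Neighbouring or overlapping matches run together.
Fasn, chr11:120824548-120824797, minus strand: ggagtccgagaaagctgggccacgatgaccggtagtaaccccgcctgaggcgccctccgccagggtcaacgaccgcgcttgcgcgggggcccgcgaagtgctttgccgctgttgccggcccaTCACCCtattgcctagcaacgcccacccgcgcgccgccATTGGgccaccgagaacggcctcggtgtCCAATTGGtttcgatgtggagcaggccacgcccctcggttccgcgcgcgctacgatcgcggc
Acaca, chr11:84195188-84195437, plus strand: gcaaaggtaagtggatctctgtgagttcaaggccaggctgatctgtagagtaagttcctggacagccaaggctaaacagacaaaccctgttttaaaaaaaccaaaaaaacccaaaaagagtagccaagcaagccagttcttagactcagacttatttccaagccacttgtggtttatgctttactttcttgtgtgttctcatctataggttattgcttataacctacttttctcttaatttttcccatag
Acss2, chr2:155517793-155518042, plus strand: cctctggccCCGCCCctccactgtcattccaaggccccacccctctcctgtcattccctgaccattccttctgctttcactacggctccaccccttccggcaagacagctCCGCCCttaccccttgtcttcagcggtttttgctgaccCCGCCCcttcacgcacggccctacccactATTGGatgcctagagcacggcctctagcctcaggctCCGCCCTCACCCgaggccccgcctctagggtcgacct
Srebf1, chr11:60210472-60210721, minus strand: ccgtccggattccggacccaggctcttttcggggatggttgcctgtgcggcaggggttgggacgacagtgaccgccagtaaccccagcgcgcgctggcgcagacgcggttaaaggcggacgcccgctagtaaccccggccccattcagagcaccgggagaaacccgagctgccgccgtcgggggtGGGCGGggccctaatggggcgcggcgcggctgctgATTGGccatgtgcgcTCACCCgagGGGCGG

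The Fasn window, the Acss2 window and 1 of the 3 Srebf1 windows held the same core letters, and so did 1 of the 2 Me1 windows. TCACCC lay 123 to 128 bases before the Fasn start, 26 to 31 before the Acss2 start and 10 to 15 before the Srebf1 start, and 4 of the 13 windows held it, against 13.8% of 32851 windows of the same length. Fasn had 3 CCAAT matches, of which 2 overlap as a palindrome, and Acss2 and the Srebf1 window had 1 each. CCAAT was held by 8 of the 13 windows and by 33.8% of all windows, and GGGCGG by 6 of the 13 and by 32.7%. In Acss2 1 of 4 GC boxes adjoins the TCACCC match directly. The Acaca window, 1 start of a gene known to have several promoters, held none of these letters. CACGTG was found in 1 of the 13 windows, that of Mlxipl, against 6.02% of all windows. The longer sterol regulatory element of the LDL receptor promoter was found in 0 of the 13 windows and in 0.192% of all. The Srebf1 window shown is the only 1 of its 3 with TCACCC, and its other 2 are not printed. These matches describe letters and not binding.

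Among the suppliers of acetyl-CoA, Acss2 fell and Acly was not called. Acss2, the cytosolic and nuclear acetyl-CoA synthetase that uses acetate, read 885 in ND, 525 in HFD 1 and 405 in HFD 2 on its brightest probe set. Its other bright probe set, 1422478_a_at, read 713, 407 and 319. Both HFD arrays were below ND on both probe sets, and HFD 2 was the lower of the pair on each. The log2 difference was -0.92 ± 0.18 (SE; HFD mean 465 ± 84.8 SD, n = 2; limma adjusted p = 9.7e-04), and -0.76 relative to the median gene. The other probe set gave -0.95 ± 0.19 (adjusted p = 8.5e-04 over 18953 probe sets). A dim Acss2 probe set, 1446542_at, read 51.1, 32.2 and 16.2, in the same order, and 1 further probe set that the annotation shares between Acss2 and another gene was left out.

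Acly, ATP citrate lyase, cleaves the citrate exported from mitochondria. Its brightest probe set, 1439459_x_at, read 5713 in ND, 5738 in HFD 1 and 5934 in HFD 2. The next, 1451666_at, read 4790, 4534 and 4589, and the weakest of the bright ones, 1425326_at, read 990, 858 and 742. The first was slightly higher and the others lower on both HFD arrays, and the third differed the most. The log2 difference of the first was 0.03 with a 95% interval of -0.18 to 0.24 (limma adjusted p = 0.813). The other pair gave -0.07 and -0.30 (adjusted p = 0.614 and 0.129). The suffix of the first marks a probe set with probes that can match other transcripts. The 3 dim Acly probe sets read 51.4, 76.8 and 63.3, then 39.7, 39.1 and 36.8, and 7.05, 0.533 and 11.1, in the order ND, HFD 1 and HFD 2.

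**Figure D1:**
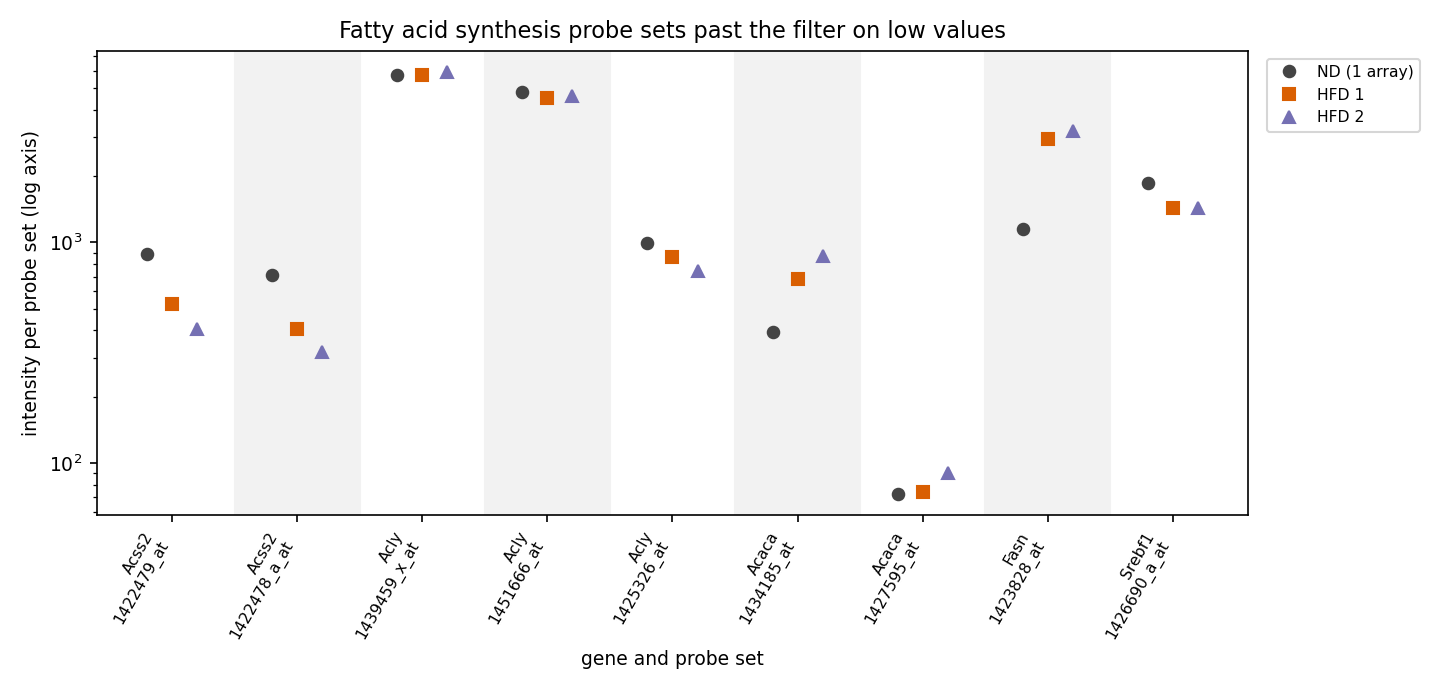
Intensity on a log axis for the 9 probe sets past the filter, with a circle for the ND array, a square for HFD 1 and a triangle for HFD 2, and no averaging. Fasn lies at 1153 in ND and at 2940 and 3202 in HFD, Acss2 is lower in HFD on both probe sets, and heights of different probe sets cannot be compared.

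Acaca, which encodes ACC1, rose on its bright probe set. That probe set, 1434185_at, read 392 in ND, 685 in HFD 1 and 868 in HFD 2. Both HFD arrays were above ND, and they differed from each other by less than either did from ND. The log2 difference was 0.95 ± 0.17 (SE; HFD mean 776 ± 129.8 SD, n = 2; limma adjusted p = 6.2e-04), and 1.10 relative to the median gene. The other Acaca probe set, 1427595_at, lay just above the filter and read 72.8, 74.3 and 90.6, with a log2 difference of 0.14 and an interval of -0.63 to 0.91 (adjusted p = 0.781). Averaging both probe sets gave 0.54 and ended the call (adjusted p = 0.0510).

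Acacb, the mitochondrial isoform ACC2, was near the floor of the array. Probe set 1445754_at read 33.0 in ND and 3.48 and 2.48 in HFD, and probe set 1427052_at read 4.09, 10.4 and 6.23. The 2 probe sets went in opposite directions and 5 of their 6 values lay under the offset. With no filter the first was called lower per gene (adjusted p = 0.0494) but not per probe set (adjusted p = 0.0519).

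Fasn, the fatty acid synthase, had the largest difference of the tested members. Its single probe set read 1153 in ND, 2940 in HFD 1 and 3202 in HFD 2. The HFD arrays lay close to each other and well above ND. The log2 difference was 1.40 ± 0.12 (SE; HFD mean 3071 ± 185 SD, n = 2; limma adjusted p = 1.5e-06), and 1.55 relative to the median gene. This places Fasn at percentile 96.7 of all genes tested by signed difference, and Acaca at 92.4, Acss2 at 6.35. The call for Fasn held under all 10 other settings that gave a test, with adjusted p-values up to 0.0104.

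Me1, the cytosolic malic enzyme that supplies NADPH, showed no ordering by diet. Probe set 1430307_a_at read 59.0 in ND, 89.0 in HFD 1 and 49.3 in HFD 2, and 1416632_at read 4.71, 2.72 and 6.25. The ND value lay between both HFD values on each.

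**Figure D2:**
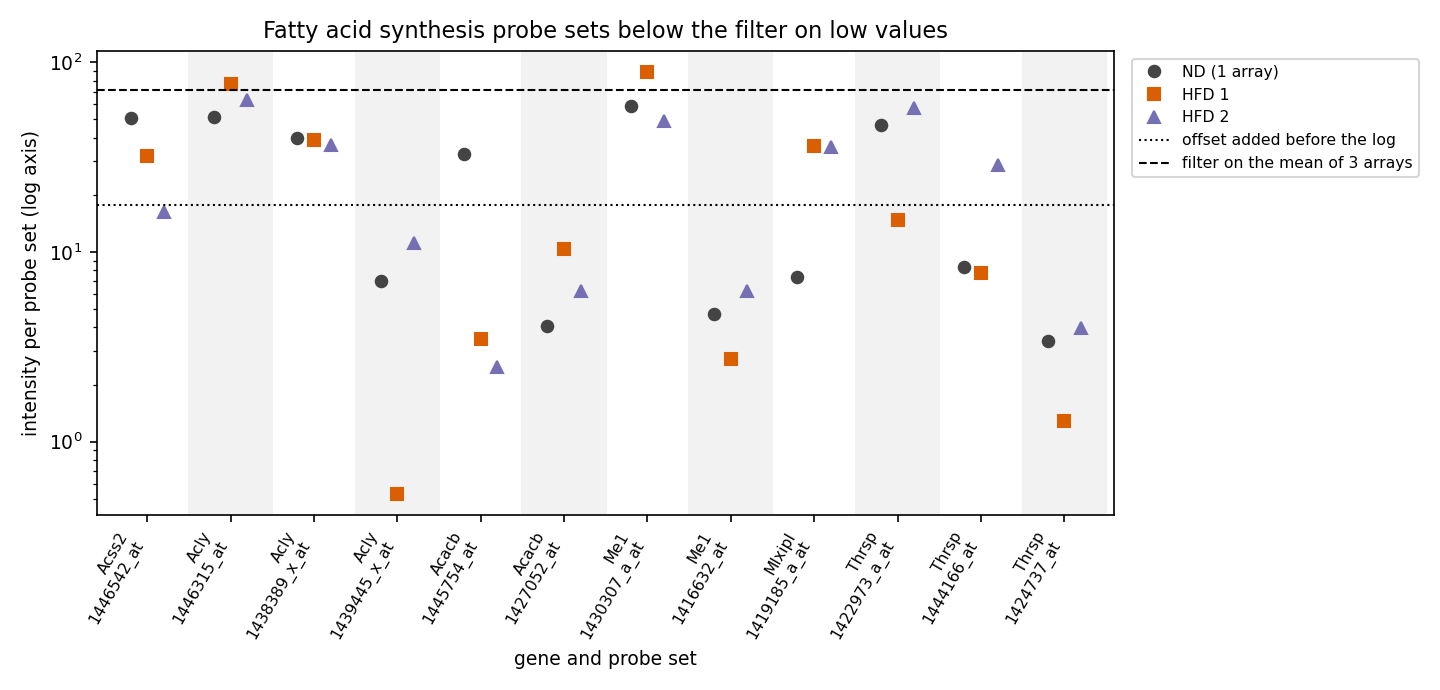
Intensity on a log axis for the 12 probe sets whose mean over the 3 arrays lay below the filter, in the same symbols, with the offset of 17.65 dotted and the filter at 71.4 dashed. For 6 of the 12 the ND value lies between both HFD values. Mlxipl is higher on both HFD arrays, at 36.4 and 35.8 against 7.40.

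Of the transcription factor genes, only Srebf1 passed the filter. Srebf1, the gene of SREBP-1, read 1860 in ND, 1435 in HFD 1 and 1430 in HFD 2. The HFD arrays were almost equal and below ND. The log2 difference was -0.37 ± 0.12 (SE; HFD mean 1433 ± 3.90 SD, n = 2; limma adjusted p = 0.0252), but -0.22 relative to the median gene. The call ended with arrays centred on their medians (adjusted p = 0.203), with no filter (0.0508) and with a single prior variance for all genes (0.0805). The SREBP-1a and SREBP-1c transcripts were not told apart on its 1 probe set, whose target region was not examined.

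Mlxipl, the gene of ChREBP, the glucose-responsive factor, read 7.40 in ND, 36.4 in HFD 1 and 35.8 in HFD 2. Both HFD values were above ND, and all 3 were below the median intensity of their arrays. With no filter the log2 difference was 1.10 with an interval of 0.15 to 2.05 and the gene was not called (adjusted p = 0.109). Thrsp read 46.7, 14.7 and 57.6 on its brightest probe set and 8.38, 7.72 and 28.8 and 3.38, 1.28 and 3.98 on the others. HFD 1 was the lowest and HFD 2 the highest on all 3, with ND between them.

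**Figure D3:**
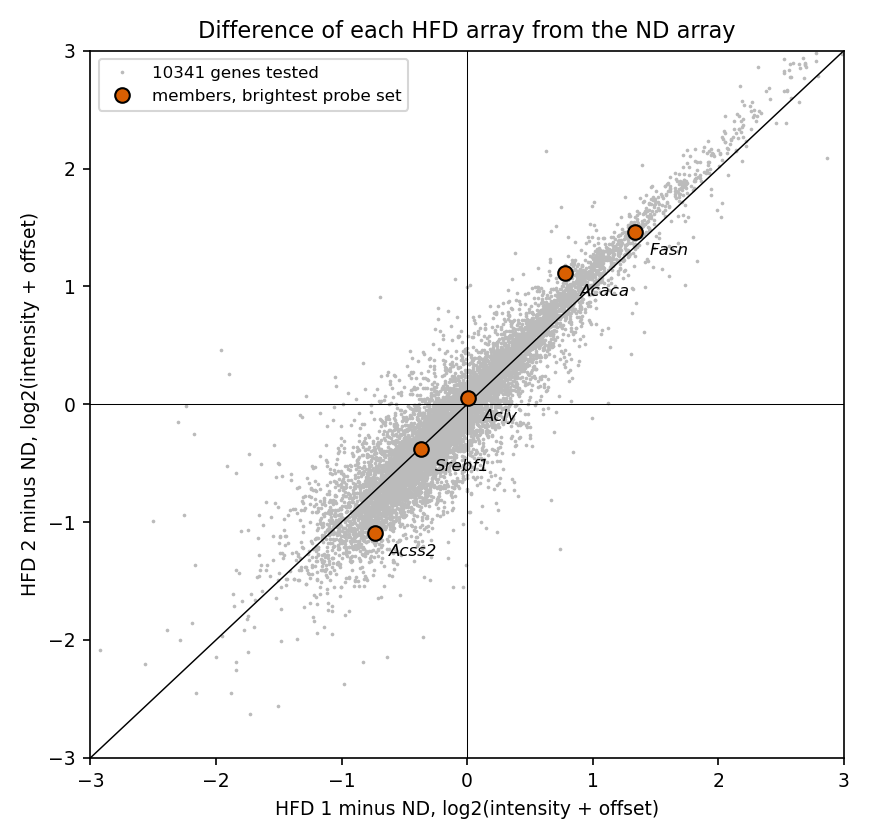
Difference of HFD 2 from ND against difference of HFD 1 from ND, in log2(intensity + 17.65), for 10341 genes tested (grey) and the 5 members past the filter (orange), with the line of equal difference. Fasn and Acaca lie in the upper right and Acss2 in the lower left, near the line, and 32 genes lie outside the plotted range of 3 either way.

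The 3 genes whose pair of differences lay nearest to that of Acaca were Ptpmt1, Trmt61a and Gm9112, at Euclidean distances of 0.025, 0.029 and 0.056 on the log2 scale. For Fasn they were Rps25, Exosc2 and Rcl1, at 0.011, 0.028 and 0.028. The measure rests on 3 arrays and on genes with 1 probe set past the filter. Of 5381 genes compared, 92 lay within 0.2 of Acaca, and of 5380 compared, 55 lay within 0.2 of Fasn. Such likeness is therefore not particular to the genes named.

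Genes that feed and surround the pathway were read from 7 lists, each described by its calls beside the 20.5% higher and 29.2% lower among all genes. Of 8 tested genes of citrate and acetyl-CoA supply, 3 rose and 1 fell, with a median log2 difference of 0.17 against -0.15 for all genes. The mitochondrial acetate synthetase Acss1 fell 1.98-fold, from 1063 to 559 and 502 (adjusted p = 2.0e-04), as its cytosolic counterpart Acss2 did. Aacs, the acetoacetyl-CoA synthetase, rose 1.46-fold, from 293 to 432 and 441 (adjusted p = 0.0186), and Mpc1, of the mitochondrial pyruvate carrier, rose 1.37-fold, from 2246 to 2936 and 3250. The remaining riser was the citrate carrier Slc25a1 (1.38-fold, adjusted p = 0.0407), which hands Acly its substrate. The call for Aacs ended when its probe sets were averaged (adjusted p = 0.0538) and with no filter (0.0857), and that for Mpc1 without the variance trend (0.0643). The Slc25a1 call ended under all 3 of these settings (adjusted p = 0.0616, 0.168 and 0.134, in that order).

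The NADPH suppliers went both ways, with 2 of 5 higher and 2 lower. Idh1, the cytosolic isocitrate dehydrogenase, fell 2.74-fold, from 414 to 142 and 137 (adjusted p = 2.0e-04), and its other bright probe set read 214, 110.2 and 99.4. H6pd, of the endoplasmic reticulum, fell 1.84-fold. Pgd, of the pentose phosphate pathway, rose 1.64-fold, from 2555 to 4019 and 4379 (adjusted p = 1.9e-04), and its 3 other bright probe sets were all higher on both HFD arrays. Nadk, which makes NADP, rose 1.32-fold (adjusted p = 0.0227), a call that ended with no filter (0.0697) and without the variance trend (0.0928).

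Of 11 genes of carboxylase partners and malonyl-CoA handling, 3 rose and 2 fell, at a median of -0.33. Brca1, a DNA repair gene whose protein binds phosphorylated ACC1, rose 2.76-fold on its brightest probe set, from 119 to 371 and 350, while its other bright probe set read 98.0, 84.2 and 69.9, in the opposite direction. The pseudokinase genes Trib1 and Trib3 moved apart. Trib3, whose protein directs ACC1 to degradation, rose 1.91-fold, from 87.3 to 181 and 185 (adjusted p = 0.0108), and Trib1 fell 2.02-fold, from 269 to 115 and 134 (adjusted p = 0.0053). Averaging probe sets ended the calls for Brca1 (adjusted p = 0.0659) and Trib1 (0.0835), and dropping the filter ended those for Trib1 (0.0654) and Trib3 (0.0864). Aasdhppt, which attaches the phosphopantetheine arm that Fasn needs, rose 1.70-fold, and Btd, which recycles the biotin of the carboxylases, fell 1.65-fold (adjusted p = 0.0057, and 0.0517 with no filter). Mid1ip1, an activator of ACC1, read 813 in ND and 647 and 637 in HFD, a log2 difference of -0.33 that was not called (adjusted p = 0.0757).

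AMPK, the kinase that switches off both carboxylases by phosphorylation, showed no call in either direction among 9 tested genes of the kinase and its activators, by limma, and 0 had an unadjusted p under 0.05. Its catalytic subunit gene Prkaa1 read 432 in ND and 422 and 432 in HFD. The members of the list with the largest steady differences were Strada (log2 -0.27, adjusted p = 0.305), Cab39 (-0.18, adjusted p = 0.138) and Prkag1 (-0.22, adjusted p = 0.194). Under quantile normalization Cab39 was called lower (adjusted p = 0.0095). The subunit gene Prkab1 (log2 -0.36, adjusted p = 0.143) was called lower with the filter at the 75th percentile (adjusted p = 0.0183).

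Among 17 tested regulators of SREBP and ChREBP, 1 rose and 4 fell, at a median of -0.16, close to that of all genes. Usf2, an E-box factor of lipogenic promoters, fell 1.45-fold, from 855 to 593 and 574 (adjusted p = 0.0093). Mbtps2, the protease that makes the second cut of SREBP, rose 1.33-fold, from 1216 to 1561 and 1680 (adjusted p = 0.0188), and Mbtps1, which makes the first, fell 1.29-fold (adjusted p = 0.0237). The Mbtps2 call ended with no filter (adjusted p = 0.0508) and without the variance trend (0.0740), and the Mbtps1 call without that trend (0.0862) and with arrays centred on their medians (0.212). Sp1 and the NF-Y subunit gene Nfyc also fell (log2 -0.41 and -0.32, limma adjusted p = 0.0088 and 0.0454). Both of these calls ended with arrays centred, with no filter, without the variance trend and with averaged probe sets. The liver X receptor gene Nr1h3 read 96.9 in ND and 62.4 and 69.4 in HFD (adjusted p = 0.322). The escort Scap, the anchor Insig1 and the sterol-directed Srebf2 read between log2 0.18 and 0.21 higher in HFD and were not called. With arrays centred Scap and Srebf2 were called higher (adjusted p = 0.0397 and 0.0433), and the split over the list turned to 5 higher and 1 lower.

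The mitochondrial fatty acid synthesis pathway, a separate set of enzymes that makes lipoic acid precursors, had 4 of 8 tested genes higher and 0 lower (0 at an unadjusted p under 0.05 either), at a median of 0.55. Lipt2, a lipoyl transferase, rose 4.03-fold, from 86.1 to 363 and 441 (adjusted p = 1.1e-05). Ndufab1, the acyl carrier protein that is also a complex I subunit, rose 2.54-fold, from 2710 to 6537 and 7299 (adjusted p = 6.6e-07). Mecr, the enoyl reductase, rose 2.51-fold, from 179 to 517 and 440 (adjusted p = 9.7e-05), and its 2 other bright probe sets were also higher on both HFD arrays. Lias, the lipoic acid synthase, rose 1.30-fold (adjusted p = 0.0183), a call that ended with averaged probe sets (0.132) and without the variance trend (0.0822). The chain-building genes Mcat, Oxsm and Cbr4 were not called, at log2 0.08, -0.39 and -0.07.

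Of 10 tested genes that elongate or desaturate the palmitate that Fasn releases, 3 rose and 3 fell, at a median of 0.20. The desaturase Scd2 fell 2.38-fold, from 4462 to 2005 and 1741 (adjusted p = 5.2e-06), whereas its paralog Scd1 read 46.0 in ND and 92.8 and 104 in HFD (adjusted p = 0.0638). The dehydratase Hacd2 rose 1.84-fold, from 1036 to 1848 and 1988 (adjusted p = 1.2e-04), but its other bright probe set read 106, 86.2 and 134 and averaging ended the call (adjusted p = 0.0647). Scd1 was called higher under quantile normalization, with arrays centred and without a variance trend.

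**Figure D4:**
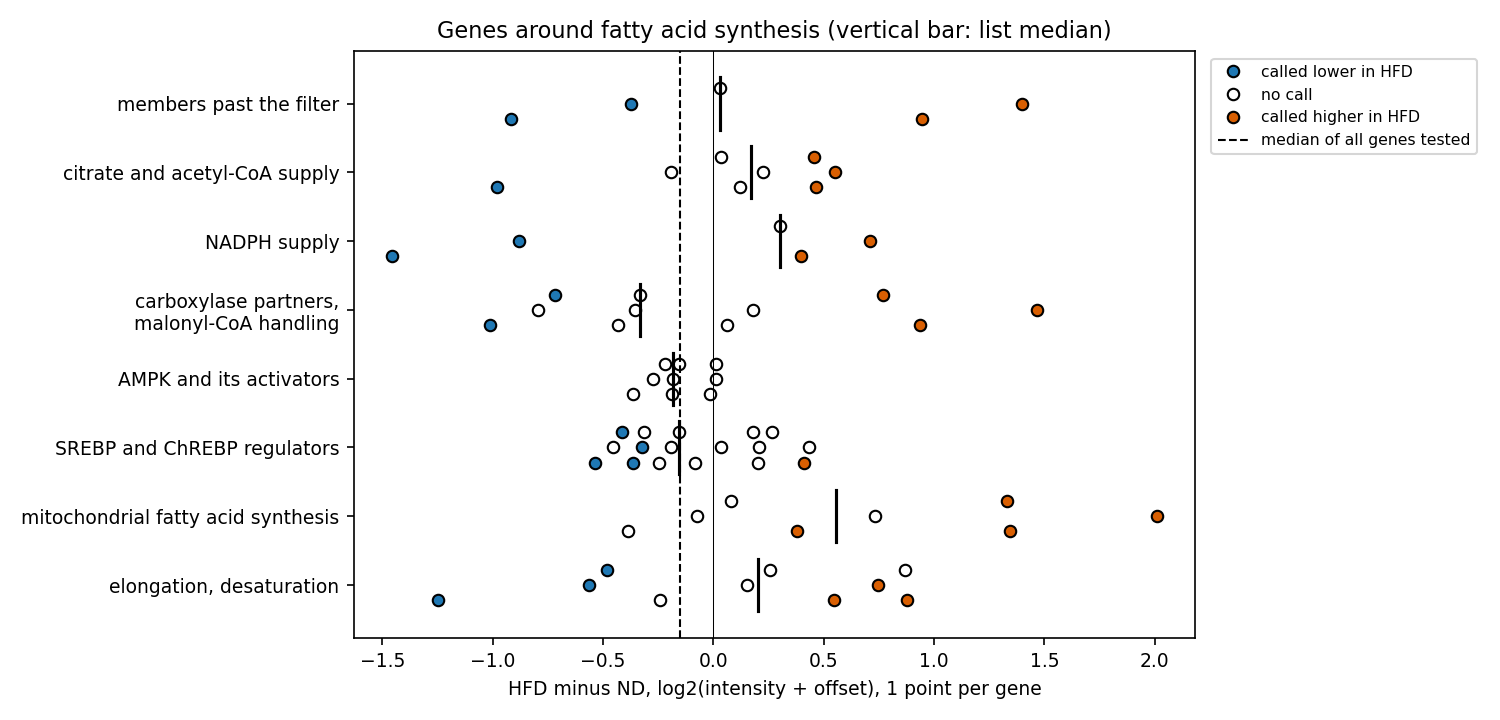
Log2 difference of HFD minus ND for each tested gene of the members and of 7 surrounding lists, 1 point per gene, filled where limma called it higher (orange) or lower (blue) in HFD, with a bar at each list's median and a dashed line at the median of all genes tested, -0.15. The mitochondrial synthesis list has the highest median, 0.55, and no AMPK gene is called.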

How the data were processed

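RNA of 3 sorted samples was hybridised to Affymetrix mouse arrays. The authors deposited 1 linear intensity value for each probe set. GCOS, Affymetrix's array software, is named per the submitters' processing notes, and the sources used here do not give its algorithm, background correction or version. Each array's mean, trimmed by 2% at both ends, is 500, so a change of bright transcripts shifts all others the opposite way. No detection calls were used, so dim probe sets may hold background alone. Having 3 arrays limits the precision.

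After 64 controls were removed from 45101 probe sets, 34945 had 1 gene symbol in the platform annotation, 932 several and 9160 none. Symbols of 34741 matched RefSeq by Entrez identifier and 0 changed. HFD was compared with ND on log2(intensity + 17.65) by limma 3.58.1 (eBayes with a trend, R 4.3.3), with two-sided p-values adjusted by Benjamini-Hochberg across all genes (10341, brightest probe set) or all probe sets (18953) past the filter. The spread comes from the HFD arrays (1 residual and 11.69 prior degrees of freedom), and the lone ND array is assumed to vary like them. The fit was first tested on simulated data with known changes. That simulation gave the ND and HFD arrays the same spread, so it could not check the assumption about the ND array.

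The genes named are all probe sets of the members, from each list up to 3 tested genes with the largest smaller difference over both HFD arrays, the 3 nearest neighbours of Acaca and Fasn, and H2-Ea, Cd74, Ms4a1, Adipoq and Plin1, of which Plin1 has no named probe set here. One further gene of that rule is not reported here. Other genes named were chosen after their values were seen. The members and lists were chosen with earlier results of these data known, and motifs after the sequences were seen. Alternatives covered normalization, offset, filter, variance model, merging of probe sets and each HFD array. Python packages were pandas 2.3.3, numpy 2.4.6 and matplotlib 3.10.9.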

Additional observations from a re-analysis of the deposited data

How the results depend on the processing

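No paired analysis was possible because ND has a single sample and shares fewer than 2 replicate numbers with HFD. Without either HFD array no residual degree of freedom is left, so those settings give values with no test. Among the 9 tested gene and probe set values of the members, 99 of the alternative values counted as unchanged. Another 4 lost the call, for Acaca (averaged probe sets) and Srebf1 (arrays centred, no filter, no variance trend). A value called in neither setting counted as unchanged whatever its sign. Acly ran from log2 -0.11 to 0.18, and its probe set 1451666_at from -0.18 to 0.08. Values from a single HFD array have no test and counted as unchanged unless a called one changed sign. All 9 had both HFD arrays on the same side of ND, so their single-array values could only count as unchanged. No called member changed sign. The 2 members called higher became 1 with averaged probe sets, and the 2 called lower became 1 with arrays centred or without a variance trend. With no filter the 2 called lower were Acss2 and Acacb, and the rule of size took 2 members higher (Fasn and Mlxipl) and 1 lower (Acacb). With a single HFD array that rule took 1 to 2 members higher and 0 to 1 lower, HFD 2 alone adding Acaca and Acss2. Of all genes, 1922 were called lower with no filter, against 3015. Of all probe sets, 2413 were called lower with no filter and 2831 without a variance trend, against 4763. By the rule of size, 125 genes were lower with arrays centred, 137 with the offset at the median, 114 when the filter was raised to the 75th percentile, 513 with no filter and 439 to 632 with a single HFD array, against 269. Lists moved as follows. Citrate supply had 1 higher with no filter or no variance trend, and so had NADPH supply, whose lower count was 0 with the filter at the 75th percentile. Under that filter the carboxylase partners had 1 higher and 0 lower, AMPK genes 1 lower and mitochondrial synthesis 2 higher. Carboxylase partners had 0 lower with no filter and 1 lower with averaged probe sets, and AMPK genes 1 lower under quantile normalization. SREBP regulators had 2 higher under quantile normalization, 5 higher and 1 lower with arrays centred, 0 higher and 2 lower with no filter, 0 higher and 1 lower without a variance trend and 2 lower with averaged probe sets. Elongation and desaturation had 5 higher with arrays centred and 1 higher with averaged probe sets. Beyond the fewer genes, samples or probe sets that some settings leave, the cause was not tested. Signal near background limits Acacb, Me1, Mlxipl and Thrsp.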
